A study of Mus musculus with 5 samples.

Results

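The genes of major histocompatibility complex (MHC) class I antigen presentation were followed through single-cell RNA-seq of mouse salivary gland organoids (mSGOs) and of the gland itself. The set was chosen by name, with earlier results of these data known. It holds 10 genes, of the 31053 listed for the 7-day and tissue libraries and the 32285 listed for the 11-day library. They are B2m, H2-K1, H2-D1, H2-T23, Tap1, Tap2, Tapbp, Psmb8, Psmb9 and Nlrc5. All 10 were found in every gene list, and 9 of them had at least 50 unique molecular identifiers (UMIs, each standing for 1 captured transcript) over the 3 7-day libraries. Nlrc5 did not.

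The study asked how photon and proton irradiation, 2 types of radiotherapy, change mSGO cells. mSGOs were grown in Matrigel from submandibular glands of C57BL/6 mice, in a medium with Wnt3a- and R-spondin1-conditioned media, EGF, FGF2, N2, insulin, dexamethasone and the ROCK inhibitor Y27632, which all organoid groups shared. Control mSGOs were not irradiated and were collected on day 7. Photon and proton mSGOs received 7 Gy of the respective radiation on day 5, the protons in the plateau of the beam, and were also collected on day 7. These 3 groups came from organoids of 4 animals of 8 to 12 weeks, and the series' design text says that there was pooling before they were sequenced. The tissue group was freshly isolated gland of mice of the same strain and age range, and the day 11 group was non-irradiated mSGOs collected on day 11, grown from another batch of animals and sequenced in a separate run. Live cells were sorted by exclusion of propidium iodide before 3′ end capture.

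MHC class I molecules show peptides from inside the cell to CD8+ T cells and natural killer cells. Proteasomes cut proteins into peptides, and in the immunoproteasome the catalytic subunits Psmb8 and Psmb9 take the places of Psmb5 and Psmb6. The transporter Tap1 and Tap2 moves the peptides into the endoplasmic reticulum, where tapasin (Tapbp) helps to load them on a heavy chain paired with beta-2-microglobulin (B2m). H2-K1 and H2-D1 encode the classical heavy chains of C57BL/6 mice, and H2-T23 encodes the non-classical Qa-1, which presents to receptors of natural killer and T cells. Nlrc5 is a coactivator that acts at class I promoters, and interferons raise the genes of this pathway, in part through Irf1.

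Each group was 1 library, so there was no replicate spread, no test and no p-value, and differences between libraries cannot be told apart from differences between conditions. Bracketed ranges after a value are 95% exact intervals for counting error only. After filtering, 6494 control, 15610 photon, 15325 proton, 1402 tissue and 9484 day 11 barcodes were kept, with 15804359, 25349615, 24792032, 5932095 and 32070703 UMIs. Any pair of libraries shared 3 to 69 barcode sequences, at most 0.642% of the smaller library. Most 7-day barcodes were shallow, with medians of 898.5 to 1049 UMIs, and carried little of the nuclear transcript Malat1. Malat1 made up at least 1% of the UMIs in 16.0% of control, 10.0% of photon, 8.95% of proton, 11.3% of tissue and 98.8% of day 11 barcodes. Levels are therefore given over all kept barcodes and over those with at least 1% Malat1, as UMIs of the gene per 1000000 UMIs of the library (CPM). Fewer cells that express a gene and less RNA per cell cannot be told apart in such pooled levels. Markers of gland cell types were set beside the labelled gland origin and do not settle it. The summed basal duct markers Krt5, Krt14, Krt15, Trp63 and Krt17 were at 11177 CPM in control. The acinar markers were at 30.9 CPM there, with 5 of 7 at 0, and at 42576.5 CPM in tissue.

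B2m lies on chromosome 2 and Nlrc5 on chromosome 8, and the other 8 genes lie on chromosome 17, where Psmb9, Tap1, Psmb8 and Tap2 are neighbours between 34182030 and 34216321 (GRCm38.p6). Psmb9 and Tap1 start 226 bases apart on opposite strands, so their 300-base promoter windows share 275 bases. RefSeq promoters (GRCm38.p6, 250 bases before to 50 after the start) were matched for 8 of the 10 genes, all but Tap2 and Nlrc5. They are shown for the light chain, for a classical heavy chain that was higher in both irradiated libraries, for the non-classical one that was not, and for the 2 immunoproteasome subunits. Capitals mark 5 motifs, searched on both strands. They are the interferon-stimulated response element core GAAANNGAA, the gamma-activated site TTCNNNGAA, TGACG and CCAAT (letters found in the X2 and Y boxes of class I promoters) and the kappa B motif. The windows are chr2:122147437-122147736 on the plus strand (B2m), chr17:34000298-34000597 on the minus strand (H2-K1), chr17:36032652-36032951 on the minus strand (H2-T23), chr17:34187281-34187580 on the minus strand (Psmb9) and chr17:34197945-34198244 on the plus strand (Psmb8), each written 5′ to 3′.
B2m: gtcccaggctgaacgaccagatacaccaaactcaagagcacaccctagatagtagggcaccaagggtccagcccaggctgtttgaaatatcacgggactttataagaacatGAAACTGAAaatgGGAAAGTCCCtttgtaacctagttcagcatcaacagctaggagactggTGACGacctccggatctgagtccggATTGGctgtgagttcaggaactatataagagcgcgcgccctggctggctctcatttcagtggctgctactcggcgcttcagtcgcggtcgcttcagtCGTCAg
H2-K1: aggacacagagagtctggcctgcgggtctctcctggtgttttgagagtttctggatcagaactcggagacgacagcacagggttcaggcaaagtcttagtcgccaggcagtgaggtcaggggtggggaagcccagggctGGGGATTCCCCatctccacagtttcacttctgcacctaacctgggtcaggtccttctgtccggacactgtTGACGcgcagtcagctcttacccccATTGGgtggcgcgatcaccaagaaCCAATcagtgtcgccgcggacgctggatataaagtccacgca
H2-T23: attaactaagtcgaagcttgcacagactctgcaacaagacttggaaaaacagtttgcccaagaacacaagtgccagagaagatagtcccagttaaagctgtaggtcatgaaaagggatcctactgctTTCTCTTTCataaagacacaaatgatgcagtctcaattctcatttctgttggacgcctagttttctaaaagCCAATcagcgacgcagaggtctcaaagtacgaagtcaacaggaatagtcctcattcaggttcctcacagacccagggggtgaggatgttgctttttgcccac
Psmb9: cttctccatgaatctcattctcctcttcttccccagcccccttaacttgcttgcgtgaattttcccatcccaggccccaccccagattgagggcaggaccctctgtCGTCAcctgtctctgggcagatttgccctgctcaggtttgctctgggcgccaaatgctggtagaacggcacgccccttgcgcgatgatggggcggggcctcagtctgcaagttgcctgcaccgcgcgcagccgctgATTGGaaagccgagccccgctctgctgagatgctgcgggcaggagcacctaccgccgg
Psmb8: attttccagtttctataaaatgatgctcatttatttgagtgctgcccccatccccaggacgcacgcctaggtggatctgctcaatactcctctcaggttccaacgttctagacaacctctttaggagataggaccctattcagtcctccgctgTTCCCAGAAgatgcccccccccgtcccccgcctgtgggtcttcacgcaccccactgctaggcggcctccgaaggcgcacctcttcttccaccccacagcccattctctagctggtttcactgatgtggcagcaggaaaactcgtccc

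The kappa B motif was present for B2m, H2-K1 and H2-D1, 3 of the 8 genes, and in 4.51% of all 32851 windows of this length. At H2-K1 and H2-D1 it read as 2 overlapping matches. TGACG was present for 5 genes (B2m, H2-K1, H2-D1, Tap1 and Psmb9) and in 20.8% of all windows, and CCAAT for 7 genes, all but Psmb8, and in 37.4%. The Tap1 and Psmb9 matches of both motifs are the same sites, read from the opposite strands of their shared bases. The response element core was present for B2m and H2-T23 and in 8.56% of windows. Psmb8 alone of the 8 held the gamma-activated site, which 8.30% of windows held. These are matches of letters and not measured binding. Only the exact patterns were searched, so a window without a match can still hold a variant of the element.

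B2m and the 2 classical heavy chains were higher in both irradiated libraries, by 1.10- to 1.26-fold in CPM over all kept barcodes, and H2-T23 was not. The median log2 ratio of all genes tested was also above 0, at 0.11 in photon and 0.10 in proton. Under median-of-ratios scaling, which takes off such a shift, B2m, H2-K1 and H2-D1 were at 0.11, 0.03 and 0.05 in photon and 0.24, 0.18 and 0.23 in proton, and the photon values of the heavy chains were the closest to 0. B2m was at 182 (176 to 189) CPM in control, 213 (207 to 218) in photon, 229 (223 to 235) in proton, 208 (203 to 213) in day 11 and 337 (322 to 352) in tissue. Its intervals were separate except for day 11 and photon. The log2 ratio to control was 0.22 (0.16 to 0.29) for photon and 0.33 (0.26 to 0.39) for proton, and 0.23 (0.13 to 0.33) and 0.27 (0.16 to 0.37) among barcodes with at least 1% Malat1.

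H2-K1 stood at 159 (153 to 165) CPM in control, 175 (169.8 to 180.1) in photon, 191 (186 to 197) in proton, 241 (228 to 253) in tissue and 333 (327 to 339.9) in day 11, with no overlap between intervals. H2-D1 followed at 285 (277 to 293), 318 (311 to 325), 355 (347 to 362), 384 (377 to 390.5) and 428 (412 to 445) CPM in control, photon, proton, day 11 and tissue, again without overlap. Both classical chains were thus lowest in control and higher in proton than in photon. Their log2 ratios were 0.14 and 0.16 for photon, 0.27 and 0.32 for proton, and with at least 1% Malat1 0.22, 0.18, 0.40 and 0.37 in the same order. Class I heavy chains are near-identical in places, and counting could have split or dropped reads between them, so levels of a single heavy chain are uncertain.

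H2-T23 (Qa-1) was at 79.1 (72.1 to 86.6) CPM in tissue, 90.96 (87.2 to 94.8) in proton, 93.9 (90.6 to 97.3) in day 11, 94.9 (91.2 to 98.8) in photon and 96.3 (91.5 to 101) in control. The 4 organoid libraries overlapped one another, and control was the highest of the 5. Its log2 ratio was -0.02 (-0.11 to 0.07) for photon and -0.08 (-0.18 to 0.01) for proton, both upper limits lying below the whole B2m interval of the same comparison. Among barcodes with at least 1% Malat1 it was -0.01 (-0.16 to 0.14) and -0.12 (-0.28 to 0.03).

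**Figure D1:**
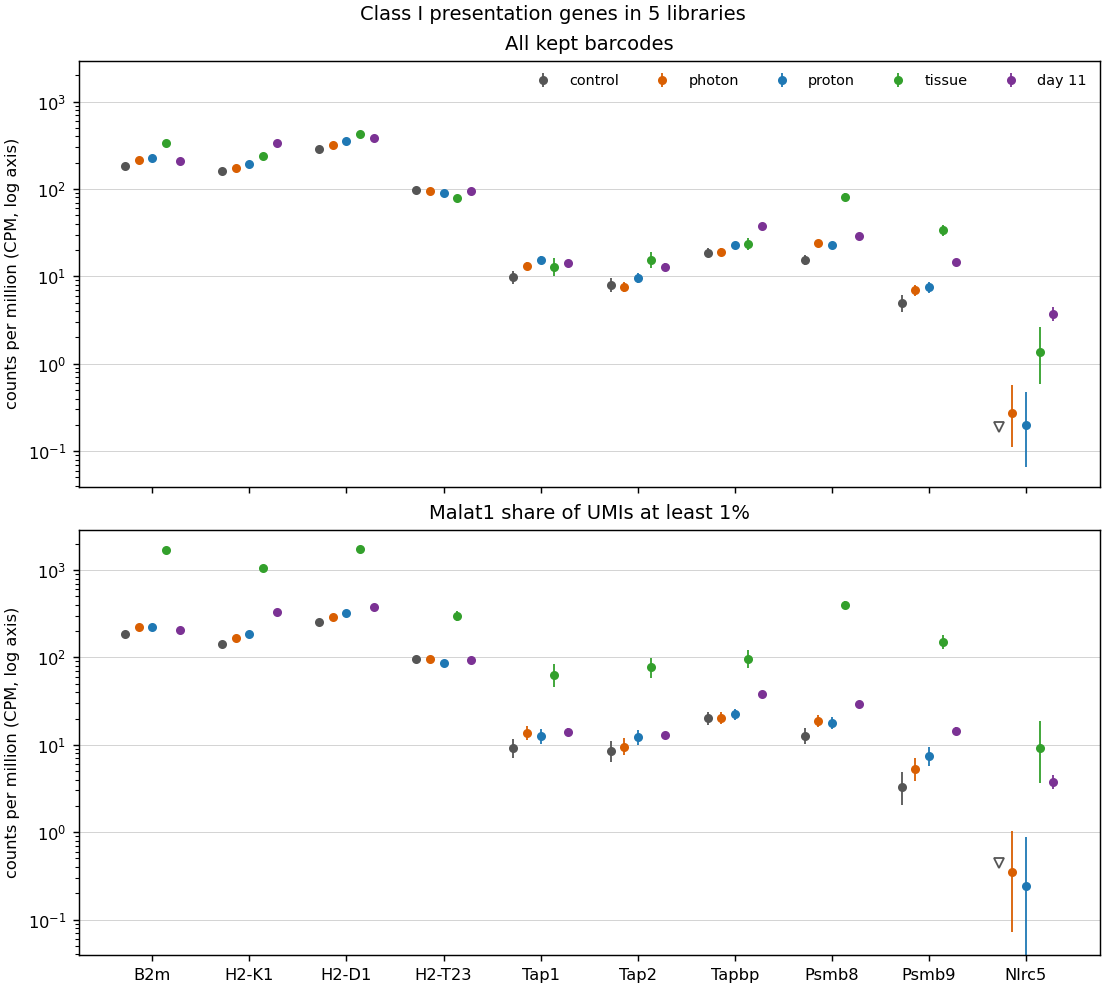
Level of each gene (x axis) in CPM on a log axis (y axis) in the 5 libraries, over all kept barcodes (top) and over barcodes with at least 1% Malat1 (bottom). Points are 1 library each, bars are 95% counting intervals (cut off at the lower edge where they run below the axis), and an open triangle marks 0 UMIs, drawn at the level of 3 UMIs. Control is the lowest library for B2m, H2-K1, H2-D1, Tap1, Psmb8 and Psmb9 in both panels, and tissue is far above the other libraries for 9 genes in the bottom panel.

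The immunoproteasome subunits showed the largest differences from control among the 9 measured genes in the irradiated libraries over all kept barcodes, together with Tap1. Psmb8 was at 15.4 (13.6 to 17.5) CPM in control, 22.9 (21.1 to 24.9) in proton, 23.8 (21.96 to 25.8) in photon, 29.03 (27.2 to 30.96) in day 11 and 81.6 (74.5 to 89.2) in tissue. Only proton and photon overlapped. The log2 ratio was 0.63 (0.41 to 0.85) for photon and 0.57 (0.35 to 0.79) for proton, and 0.57 (0.18 to 0.96) and 0.48 (0.09 to 0.88) with at least 1% Malat1.

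Psmb9 had few UMIs, 78 in control, 175 in photon and 186 in proton. Its level was 4.94 (3.90 to 6.16) CPM in control, 6.90 (5.92 to 8.01) in photon, 7.50 (6.46 to 8.66) in proton, 14.6 (13.3 to 15.9) in day 11 and 33.9 (29.4 to 38.9) in tissue, and the control and photon intervals overlapped, as did those of photon and proton. The log2 ratios were 0.48 (0.09 to 0.89) and 0.60 (0.22 to 1.00). They were 0.71 (-0.06 to 1.51) and 1.19 (0.47 to 1.96) with at least 1% Malat1, on 22 control UMIs.

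The constitutive subunits did not differ to the same extent. Psmb5, Psmb6 and Psmb7 had log2 ratios of 0.09, 0.20 and 0.01 for photon and 0.07, 0.02 and -0.01 for proton. The share of an immunoproteasome subunit in the UMIs of the pair it forms with its constitutive counterpart does not depend on the scaling between libraries. Psmb8 made up 5.63% (4.96 to 6.35) of the Psmb8 and Psmb5 UMIs in control, 7.97% (7.37 to 8.60) in photon, 7.76% (7.16 to 8.40) in proton, 10.2% (9.59 to 10.8) in day 11 and 57.4% (54.00 to 60.8) in tissue. Both irradiated libraries lay above control with separate intervals over all kept barcodes, and tissue lay far above all organoids. With at least 1% Malat1 the share of Psmb8 was 5.10% (4.10 to 6.26) in control, 6.91% (5.91 to 8.02) in photon and 6.65% (5.64 to 7.78) in proton. Both irradiated intervals overlapped that of control there.

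Psmb9 made up 3.14% (2.49 to 3.90) of its pair with Psmb6 in control, 3.80% (3.27 to 4.40) in photon, 4.62% (3.99 to 5.31) in proton, 6.52% (5.96 to 7.12) in day 11 and 36.7% (32.7 to 40.9) in tissue. Here only the proton interval was separate from that of control among the 7-day libraries. Psmb10, the inducible counterpart of Psmb7, went the other way. Its share was 10.1% (8.63 to 11.7) in control, 8.88% (7.78 to 10.1) in photon and 8.37% (7.28 to 9.56) in proton, with overlapping intervals, 13.2% (12.1 to 14.4) in day 11 and 57.99% (52.4 to 63.5) in tissue. The log2 ratio of Psmb10 itself was -0.20 (-0.50 to 0.11) for photon and -0.31 (-0.62 to 0.0024) for proton, and -0.77 (-1.34 to -0.21) for proton with at least 1% Malat1. The 3 inducible catalytic subunits therefore did not differ from control in 1 direction.

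**Figure D2:**
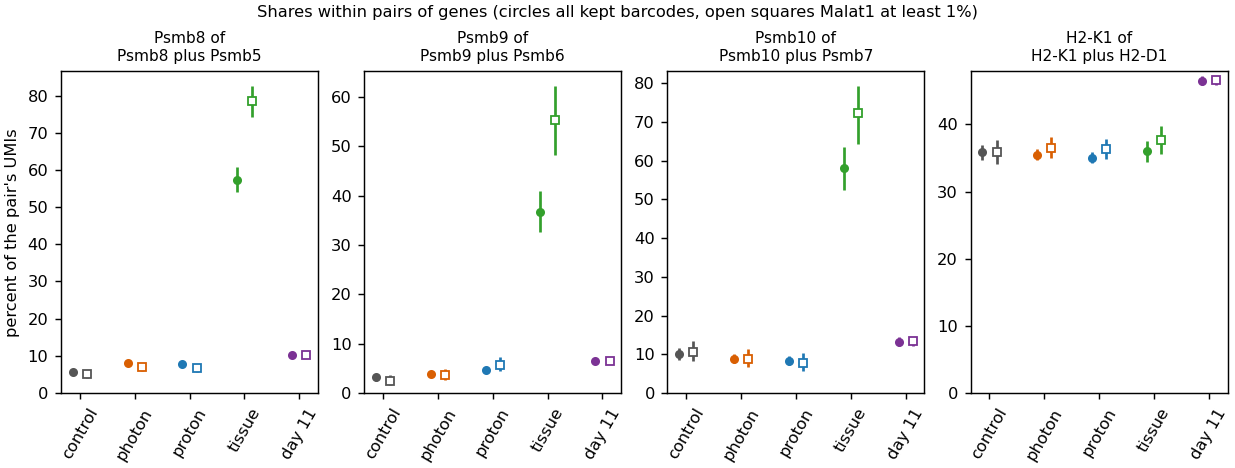
Percent of the UMIs of a gene pair that belong to its first gene (y axis, from 0, a different scale in each panel) in the 5 libraries (x axis), for the 3 pairs of inducible and constitutive proteasome subunits and for H2-K1 with H2-D1. Circles are all kept barcodes, open squares those with at least 1% Malat1, and bars are exact binomial 95% intervals. Tissue has the highest share of each inducible subunit, 57.4% for Psmb8 over all kept barcodes, and day 11 stands apart for H2-K1 at 46.5%.

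Of the transporter genes, Tap1 was higher in both irradiated libraries and Tap2 varied between comparisons. Tap1 was at 9.74 (8.27 to 11.4) CPM in control, 12.8 (10.1 to 16.04) in tissue, 13.2 (11.8 to 14.7) in photon, 14.2 (12.9 to 15.6) in day 11 and 15.5 (14.02 to 17.2) in proton. The control interval was separate from those of photon, day 11 and proton, and the other neighbours in this order overlapped. Its log2 ratios were 0.44 (0.16 to 0.72) for photon and 0.67 (0.40 to 0.95) for proton, and 0.58 (0.12 to 1.05) and 0.45 (-0.02 to 0.93) with at least 1% Malat1.

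Tap2 was at 7.57 (6.54 to 8.72) CPM in photon, 8.04 (6.70 to 9.56) in control, 9.64 (8.46 to 10.9) in proton, 12.8 (11.6 to 14.1) in day 11 and 15.3 (12.4 to 18.8) in tissue, and the 7-day libraries overlapped in that order. The log2 ratios were -0.09 (-0.42 to 0.25) and 0.26 (-0.05 to 0.58), and 0.18 (-0.33 to 0.70) and 0.54 (0.06 to 1.04) with at least 1% Malat1. The value with at least 1% Malat1 in proton was -0.33 when each barcode was thinned to 1000 UMIs, so its direction turned with that setting. Over all kept barcodes the directions turned as well. With barcodes of at least 2500 genes Tap2 was at 0.81 in photon and 1.12 in proton, and with a mean over barcodes at -0.33 and -0.20.

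Tapbp, the peptide-loading factor, was at 18.7 (16.6 to 20.9) CPM in control, 19.3 (17.6 to 21.04) in photon, 22.95 (21.1 to 24.9) in proton, 23.6 (19.9 to 27.8) in tissue and 37.5 (35.4 to 39.7) in day 11. Control and photon overlapped, and day 11 was apart from all others. Its log2 ratio was 0.04 (-0.17 to 0.26) for photon, -0.06 under median-of-ratios scaling, and 0.30 (0.09 to 0.51) for proton. The proton ratio was 0.14 (-0.18 to 0.47) with at least 1% Malat1.

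Nlrc5 was at the edge of detection in 7-day mSGOs. No UMI was found among 6494 control barcodes, for which the exact interval ends at 0.233 CPM. The floor of 3 UMIs used in ratios lies at 0.190 CPM there. In photon 7 UMIs were found and in proton 5. Tissue held 8 UMIs, 1.35 (0.582 to 2.66) CPM, and day 11 held 119 UMIs, 3.71 (3.07 to 4.44) CPM. No ratio to control is given for the irradiated libraries.

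**Figure D3:**
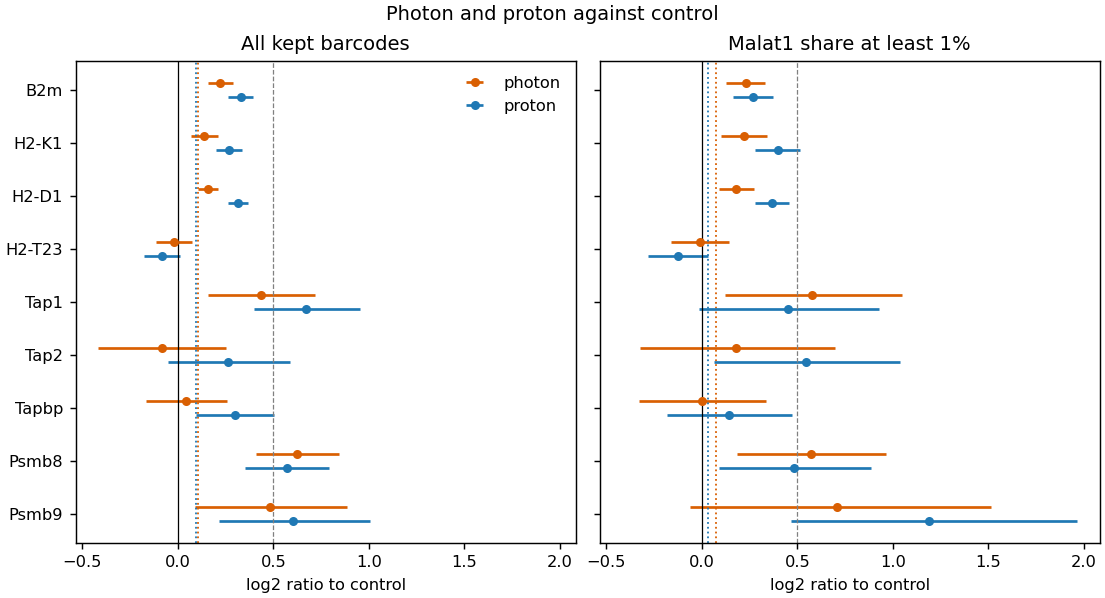
Log2 ratio of each gene's CPM to control (x axis) for photon and proton, over all kept barcodes (left) and over barcodes with at least 1% Malat1 (right). Points are ratios of 1 library to 1 library, bars are 95% counting intervals, the dashed line is the call limit of 0.5, and the dotted lines are the medians of all genes tested (between 0.03 and 0.11). H2-T23 lies at or below 0 in every comparison and Psmb8, Psmb9 and Tap1 lie farthest to the right of the genes over all kept barcodes.

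A gene was called higher when its log2 ratio was at least 0.5 with an interval above 0. Over all kept barcodes 1 of the 9 measured genes (Psmb8) was called higher in photon, beside 8.77% of all 11155 genes tested. In proton it was 3 of 9 (Tap1, Psmb8 and Psmb9), beside 7.70% of genes. With at least 1% Malat1 it was 2 of 9 in photon (Tap1 and Psmb8), beside 7.43%, and 2 of 9 in proton (Tap2 and Psmb9), beside 5.76%. No ratio was at or below -0.5. The genes called changed from one comparison to the next, and the interval of each call spanned the limit of 0.5. The median log2 ratio of the 9 genes was 0.16 in photon and 0.32 in proton, where all genes tested had medians of 0.11 and 0.10. Scaling by median of ratios, which removes a shift of this kind, gave 0.05 and 0.23. With at least 1% Malat1 the medians were 0.22 and 0.40, beside 0.07 and 0.03 for all genes.

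Markers of other epithelial cells moved with the irradiated libraries. In control, photon and proton the acinar markers summed to 30.9, 9.27 and 8.35 CPM, with 5, 4 and 4 of 7 at 0. The myoepithelial markers summed to 123, 66.1 and 64.8 CPM, the cycling markers to 417, 249 and 281 CPM and the basal duct markers to 11177, 11979 and 12046 CPM. Their part in the class I ratios was not tested.

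Photon and proton share the control library, so the 2 sets of ratios are not independent. Set directly against photon over all kept barcodes, proton was higher for B2m by 0.11 (0.05 to 0.16), H2-K1 by 0.13 (0.07 to 0.19), H2-D1 by 0.16 (0.12 to 0.20), Tapbp by 0.25 (0.08 to 0.43), Tap1 by 0.24 (0.02 to 0.45) and Tap2 by 0.35 (0.07 to 0.63) on the log2 scale. Psmb8 differed by -0.06 (-0.22 to 0.11), Psmb9 by 0.12 (-0.19 to 0.43) and H2-T23 by -0.06 (-0.14 to 0.02). With at least 1% Malat1 the intervals of H2-K1 at 0.18 (0.07 to 0.28) and H2-D1 at 0.19 (0.11 to 0.27) stayed above 0. Those of B2m at 0.04 (-0.06 to 0.13), Tapbp at 0.14 (-0.17 to 0.45), Tap1 at -0.13 (-0.52 to 0.27) and Tap2 at 0.36 (-0.07 to 0.80) included 0. None of the 9 genes was called higher over all kept barcodes in this comparison, in which 1.24% of all genes were called higher.

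The differences of B2m and the classical heavy chains varied with the depth of the barcodes, which were split into bins that start at 500, 1000, 2000 and 5000 UMIs. In these bins, in rising order, the log2 ratio of B2m was 0.20, 0.40, 0.31 and 0.25 in photon and 0.36, 0.55, 0.46 and 0.26 in proton. All genes tested had medians of 0.09, -0.02, 0.06 and 0.23 in photon and 0.10, 0.0028, 0.07 and 0.19 in proton in the same bins, so the photon value of B2m in the deepest bin lay close to that of all genes. H2-D1 was at 0.16, 0.26, 0.33 and 0.05 in photon and 0.35, 0.37, 0.47 and 0.24 in proton. Its photon interval in the deepest bin, 0.05 (-0.04 to 0.13), included 0 and lay below the median of all genes, as did that of H2-K1 at 0.10 (-0.01 to 0.21). H2-K1 was at 0.16, -0.10, 0.28 and 0.10 in photon and 0.21, 0.06, 0.36 and 0.31 in proton, and its intervals included 0 in the bin from 1000 UMIs in both comparisons and in the deepest bin in photon. Psmb8 was at 0.82, 0.58, 0.96 and 0.36 in photon and 0.78, 0.65, 0.80 and 0.28 in proton, and in the deepest bin it lay under the call limit, at 0.36 (0.02 to 0.70) and 0.28 (-0.06 to 0.62). Tap1 was at 0.31, -0.13, 0.63 and 0.53 in photon and 0.99, -0.04, 1.03 and 0.36 in proton, below 0 in the bin from 1000 UMIs, on 12 control UMIs. H2-T23 was below 0 in the 3 bins under 5000 UMIs, lowest at -0.33 for proton in the shallowest bin, and at 0.12 and 0.02 above that. In the bin from 1000 UMIs control held 651 barcodes against 6235 in photon and 4047 in proton, and among barcodes of at least 5000 UMIs the median Malat1 share was 1.66% in control, 4.91% in photon and 5.49% in proton. The part of these gaps in the ratios was not tested.

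**Figure D4:**
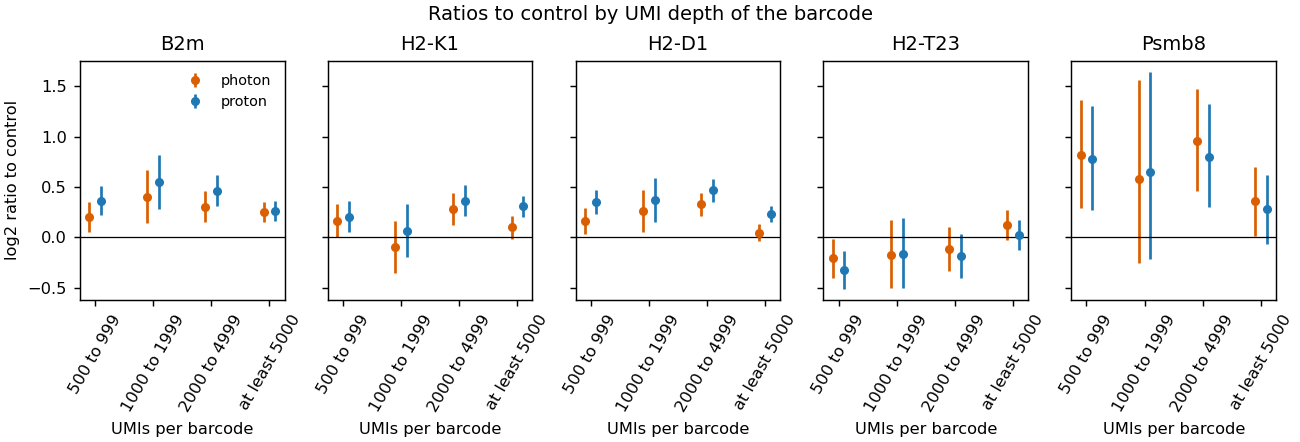
Log2 ratio to control (y axis) of 5 genes in photon and proton mSGOs, by the UMI depth of the barcode (x axis). Points are 1 library against 1 library with 95% counting intervals. B2m lies above 0 in every bin, H2-T23 lies below 0 in the bins under 5000 UMIs, and Psmb8 lies above 0 throughout with wide intervals.

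The 3 7-day libraries were clustered together without the genes of the lists used here, into 6 clusters, none of which was named from the marker lists. Cluster 2 had 3 cycling markers at least 2-fold up but none among its 5 leading genes, the condition added after the clusters were seen. Cluster 5 (2817 barcodes, median 6731 UMIs, led by Neat1 and Malat1) gave ratios of 0.27 and 0.28 for B2m, 0.24 and 0.45 for H2-K1 and 0.56 and 0.95 for Psmb9 in photon and proton. Cluster 4 (4784 barcodes, median 2969 UMIs, little Malat1) gave 0.17 and 0.32 for B2m and 0.75 and 0.64 for Psmb8. Other clusters were less uniform. H2-K1 was at -0.16 and -0.07 in cluster 1 and at -0.11 and -0.15 in cluster 6, H2-D1 was at -0.09 in cluster 6 in photon, and B2m was at -0.008 in cluster 3 in photon. These intervals all included 0. The median over the 9 genes was above 0 in each of the 6 clusters, between 0.09 and 0.27 in photon and between 0.20 and 0.40 in proton. The median of all genes was not computed by cluster. Over all kept barcodes it was 0.11 in photon and 0.10 in proton. The photon medians of the 9 genes in clusters 1 and 6, at 0.11 and 0.09, were near that value. H2-T23 was below 0 in 4 of the 6 clusters in photon and in 5 of 6 in proton.

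Upstream of these genes, the interferon signalling factors Stat2 and Irf9 were higher in photon, and Irf1 differed little. Stat2, a subunit of the complex that carries type I and type III interferon signals to the nucleus, was at 2.72 CPM in control, 6.19 in photon and 5.73 in proton, log2 ratios of 1.19 (0.69 to 1.71) and 1.07 (0.57 to 1.60), and was called higher in both. These were 1.39 and 1.24 with at least 1% Malat1. Irf9, the subunit of that complex that binds DNA, was at 13.3, 20.99 and 18.3 CPM, and its log2 ratio was called higher in photon at 0.66 (0.43 to 0.90) and not in proton at 0.46 (0.22 to 0.70). Irf1, which binds interferon response elements, was at 5.69, 6.15 and 6.33 CPM, log2 ratios of 0.11 (-0.27 to 0.50) and 0.15 (-0.23 to 0.54). The lowest ratios of the regulators of class I transcription were those of Rfxap in photon (-0.40) and Nfyc in proton (-0.30), subunits of the complexes that bind X and Y boxes. In proton Nfyc was at -0.66 (-1.29 to -0.04) with at least 1% Malat1.

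Of 6 interferon receptor genes, Ifnlr1, the receptor chain for type III interferons, was highest at 1.43 (0.61 to 2.35) in photon and 1.42 (0.59 to 2.34) in proton, on 15 control UMIs. Ifnar2, a chain of the type I receptor, was called higher in proton (0.95 (0.69 to 1.22)) and not in photon (0.40 (0.12 to 0.68)). Ifngr1 was lowest at 0.06 and 0.08. No interferon reached 50 UMIs. The 7 interferon genes listed summed to 0.0633 CPM in control and 0 in photon and proton.

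Over all kept barcodes no further gene of the pathway passed the call limit in either direction. Of all genes tested, 8.77% in photon and 7.70% in proton were called higher, and 3.59% and 4.43% lower. Lists of this size can hold no call at such shares. Of 13 other class I heavy chain genes matched, 5 had enough UMIs and none was called higher, from H2-Q7 at -0.37 and -0.29 to H2-Q4 at 0.37 and 0.43 in photon and proton. Of 10 other processing and loading genes none was called higher. The chaperone Canx was highest at 0.35 and 0.32, Tapbpl was lowest in photon at -0.39 and Psmb10 lowest in proton. With at least 1% Malat1, H2-Q4 was called higher in proton at 0.81 (0.08 to 1.57), beside 5.76% of genes. Psmb10 lay below -0.5 there, as given above. The 11 other proteasome core genes (alpha subunits and Psmb1 to Psmb4) lay above 0 over all kept barcodes and none was called higher. Their medians were 0.13 and 0.15 beside the 0.11 and 0.10 of all genes. Of all genes tested, 64.9% in photon and 63.5% in proton lay above 0.

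The class II pathway was not uniform. Of its 7 listed genes 4 had enough UMIs, of which 2 were called higher in photon and 1 in proton, beside 8.77% and 7.70% of all genes. H2-Eb1, a class II beta chain, was at 2.91 CPM in control, 11.6 in photon and 10.6 in proton, log2 ratios of 1.99 (1.54 to 2.47) and 1.87 (1.42 to 2.36). H2-Ab1, the other class II beta chain, was at -0.46 (-0.71 to -0.22) and -0.28 (-0.52 to -0.04), and at -0.73 (-1.15 to -0.32) in photon with at least 1% Malat1. H2-DMa was lowest in proton at -0.73 (-1.78 to 0.31) on few UMIs.

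Of 22 immune cell markers, 16 in control and 15 in each irradiated library were at 0, and their summed level was 15.3 CPM in control, 26.6 in photon and 23.6 in proton. Nearly all of it was Cd68, a lysosomal protein of macrophages and of some other cells, with log2 ratios of 0.86 and 0.70. The macrophage markers Adgre1 and C1qa and the T cell marker Cd3e were at 0 in the 3 libraries, and Csf1r had 1 UMI, in proton. Without the barcodes that held a UMI of any of the 22 genes, the median of the 9 class I genes was 0.15 in photon and 0.35 in proton.

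Gland tissue had the highest levels of B2m, H2-D1, Tap2, Psmb8 and Psmb9 over all kept barcodes, whereas H2-K1, Tapbp and Nlrc5 were highest in day 11, Tap1 in proton and H2-T23 in control. Over all kept barcodes 6 of the 9 genes were called higher than in control, beside 9.90% of genes, and the median over all genes tested was -1.40. Psmb8 and Psmb9 led with 2.40 (2.18 to 2.63) and 2.78 (2.40 to 3.18), while H2-T23 was at -0.28 (-0.44 to -0.13), and at 0.87 under median-of-ratios scaling. With at least 1% Malat1 (158 tissue barcodes) all 9 were called higher, beside 24.8%. B2m reached 1703 (1612 to 1798) CPM and Psmb8 398 (355 to 446) CPM there. Immune markers summed to 2099.6 CPM over all tissue barcodes, with 4 of 22 at 0, and to 9079.8 CPM over the 158 with at least 1% Malat1, against 17.3 CPM in control there. Of the tissue barcodes, 593 of 1402 held no UMI of any of them. Over those 593 the median of the 9 genes was 0.23 and 3 genes were called higher, against 0.60 and 6 over all 1402. The median and called share of all genes were not computed over the 593, so this drop cannot be set beside that of other genes. Over all 13547 deposited tissue barcodes the median was -0.41.

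By cluster, the highest B2m levels in tissue were in a cluster of 48 barcodes led by S100a8, S100a9 and Retnlg with all 8 macrophage markers at least 2-fold higher than in the rest (2572 (2399.8 to 2752) CPM), which got no name as its 5 leading genes held no marker of that list, in an endothelial-like cluster of 65 barcodes (2354 (2159 to 2561)) and in a T or NK-like cluster of 45 (973 (808 to 1160.4)). Epithelial clusters were far lower. The acinar-like cluster (123 barcodes) held 31.8 (24.9 to 40.02) CPM of B2m and the granular or striated duct-like cluster (97 barcodes) 248 (185 to 325). Psmb8 followed the same split, with 546, 542 and 340.0 CPM in the first 3 clusters and 9.16 in the acinar-like and 9.54 in the duct-like cluster. H2-T23 was highest in the endothelial-like cluster of 65 barcodes, 577 (483 to 685) CPM, and 262 and 134 CPM in the other 2. The other endothelial-like cluster of 94 barcodes had only 199.6 (144 to 269.8) CPM of B2m, and its median Malat1 share was 0 against 2.28% in the cluster of 65. Clusters are of 1 library, and the intervals cover counting only.

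**Figure D5:**
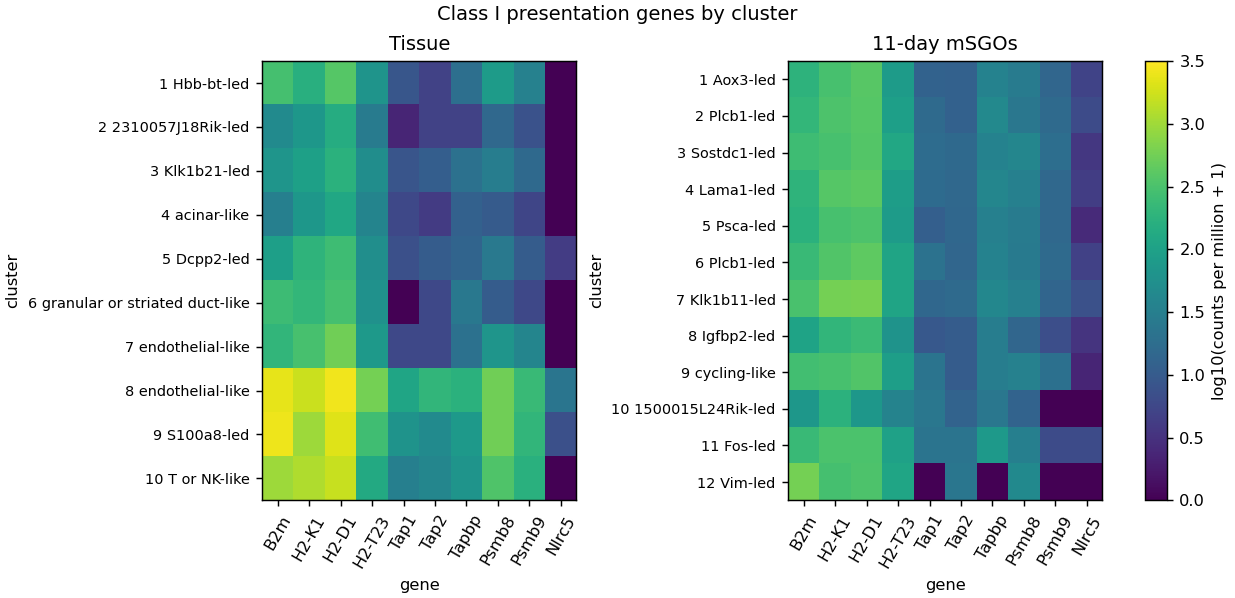
Level of the 10 genes (x axis) in the clusters of the tissue library (left) and of the 11-day library (right), as log10(CPM + 1) in colour, with clusters named by markers or by the gene that leads them. In tissue the endothelial-like cluster 8, the S100a8-led cluster 9 and the T or NK-like cluster 10 stand above the rest, while the 11-day clusters differ less.

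In 11-day mSGOs most class I genes were higher than control in CPM, as were most genes tested. The median of all genes tested was 1.16 on the log2 scale against control, and 7 of the 10 class I genes were called higher beside 68.2% of all genes. Among barcodes with at least 1% Malat1 it was 8 of 10 beside 63.3%. The day 11 library came from another batch of animals, another run, a later software version and a longer gene list, and these cannot be told apart from the day. H2-K1 was 1.08 (1.01 to 1.14) above control and -0.06 under median-of-ratios scaling. Psmb9 was 1.57 (1.22 to 1.93), and 0.43 under that scaling. B2m was 0.20 (0.13 to 0.26) and -0.94, and H2-T23 -0.03 (-0.12 to 0.06) and -1.17. Nlrc5 was 19.6-fold higher than control in CPM, taken against the floor of 3 UMIs over the control library. It was 8.51-fold higher with at least 1% Malat1. Both take control at the floor and leave out counting error. On the log2 scale they were 4.30 and 3.09, and the lower ends of the exact intervals were 3.98 and 2.77. The first was 3.16 under median-of-ratios scaling.

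The balance of the 2 classical heavy chains, which no scaling affects, did not differ beyond counting error in 4 libraries and was different on day 11. H2-K1 made up 35.8% (34.7 to 36.96) of the H2-K1 and H2-D1 UMIs in control, 35.5% (34.7 to 36.4) in photon, 35.05% (34.2 to 35.9) in proton and 35.96% (34.5 to 37.5) in tissue, with overlapping intervals, and 46.5% (45.9 to 47.1) in day 11. Day 11 was counted with another software version and gene list, and reads of near-identical heavy chains could have been assigned differently there. The part of this in the share was not tested. Beside H2-K1, B2m made up 53.4% (52.1 to 54.7) of the pair in control and 38.4% (37.7 to 39.1) in day 11. Of the 12 clusters of the 11-day library, cluster 7 (344 barcodes, led by Klk1b11, Sorbs2 and Hp) had the highest H2-K1 level, 585 (550.0 to 623) CPM, and H2-D1 level, 611 (575 to 649) CPM. Cluster 8 (298 barcodes, led by Igfbp2 and Acta2) had 199.9 (171 to 233) and 242 (209.5 to 277) CPM. The cycling-like cluster 9 (124 barcodes) had 304 (265 to 346) CPM of H2-K1.

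Among single barcodes of at least 5000 UMIs, thinned to 5000, the 10 genes together had a mean of 3.93 UMIs in control (SD 2.41, 1122 barcodes), 4.39 in photon (SD 2.86, 787), 4.54 in proton (SD 3.19, 874), 5.80 in day 11 (SD 3.74, 1124) and 12.9 in tissue (SD 18.3, 160). The median was 4 in each 7-day library, 5 in day 11 and 3 in tissue. The variance over the mean was 1.48, 1.87 and 2.24 in control, photon and proton, 2.42 in day 11 and 26.1 in tissue. Tissue joined many barcodes with few UMIs and a minority with many, with a 90th percentile of 39.2. Shallower barcodes were left out, 5372 in control, 14823 in photon, 14451 in proton, 8360 in day 11 and 1242 in tissue.

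The 5 genes nearest to the medians of the class I genes over the 4 irradiation ratios, by their largest difference in any of the 4 log2 ratios, were Triap1, Galnt18, Ssbp2, Taf11 and Zbtb43, out of 5246 genes with at least 200 UMIs in each 7-day library. Their differences from the medians ran from 0.032 to 0.052. The 4 ratios share 1 control library and the barcode sets overlap.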

How the data were processed

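Single-cell RNA-seq was measured in 5 libraries, 1 per group, with groups taken from the sample labels. The authors deposited raw UMI counts per gene and barcode from 10x Genomics 3′ libraries. Processing notes name Cell Ranger 5 and mm10, the matrix headers name software 3.0.1 (7-day and tissue) and 7.0.0 (day 11), and the study's methods name GRCm39, so the build behind the counts is not settled here. No deposited barcode had fewer than 500 UMIs. Strand and intron settings are not given in the sources used here.

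Barcodes with at least 200 genes and at most 5% mitochondrial UMIs were kept. Scrublet, run within scanpy 1.11.5, scored doublets. Its automatic limit marked 0 to 10.1% of barcodes, so the highest scores were removed in every library at 0.8% per 1000 barcodes. Pooled counts were turned into CPM with exact Poisson intervals, and log2 ratios carry exact conditional binomial intervals (scipy 1.17.1, 95%). A count of 0 was set to 3 UMIs in ratios, and none was given where both counts were 3 or fewer. Genes with at least 50 UMIs over the libraries compared (the 3 7-day libraries together for irradiation) were tested against the call limit of 0.5. No test of significance was made, because each group held 1 library. The ratio calculation was tested on simulated data. PCR duplicates were removed by the UMIs, and intervals do not cover differences between cells, animals or libraries.

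Clusters (Leiden, leidenalg 0.10.2, resolution 0.8, 2000 variable genes, 30 components, 15 neighbours) were made without the listed genes. A cluster was named when 3 or more markers of a type were at least 2-fold higher than in the rest and a marker was among its 5 leading genes, the last condition being set after the clusters were seen. Named genes are the 10 class I genes, the highest and lowest ratio of each list, Psmb5, Psmb6, Psmb7 and the 5 nearest genes. Stat2, Irf9, Irf1, Ifnar2, Cd68 and Psmb10 were named in addition, after their values were seen. One result of the list of regulators, and the counts and medians of that list, are not reported here. The class I genes and the gene lists were chosen with earlier results of these data known. Alternatives were other barcode filters, depth thinning, scaling, pseudocount and Malat1 limits.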

Additional observations from a re-analysis of the deposited data

Results flagged for a closer look

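Tap2 had ratios of opposite sign in the 2 irradiated libraries over all kept barcodes, -0.085 on the log2 scale in photon and 0.26 in proton. Both counting intervals included 0. Set directly against photon, proton was 0.35 (0.07 to 0.63), an interval for counting error only, and with 1 library each a difference between the conditions was not tested. Both signs turned under other barcode choices, to 0.81 in photon with at least 2500 genes and -0.20 in proton with a mean over barcodes.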

How the results depend on the processing

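The median of the class I genes stayed above 0 under every alternative tried for photon (0.050 to 0.21 over all kept barcodes, 0.11 to 0.29 with at least 1% Malat1), for proton (0.23 to 0.51 and 0.28 to 0.44) and for proton against photon (0.11 to 0.16). The lowest photon value, 0.050, came with median-of-ratios scaling and the highest proton value, 0.51, with barcodes of at least 2500 genes, of which control held 193, photon 245 and proton 218. The number of genes called was less steady. In proton it ran from 2 to 4 around the 3 reported over all kept barcodes. In photon it was 2 instead of 1 without doublet removal and over all deposited barcodes. With at least 1% Malat1, photon went from 2 to 1 with at least 2500 genes, with at most 2500 genes, with a mean over barcodes (which has no interval) and without barcodes holding an immune UMI, and to 0 with median-of-ratios scaling and with thinning to 1000 UMIs, and up to 3 over all deposited barcodes, with a mitochondrial limit of 10% and with at least 0.5% Malat1. Proton went there from 2 to 4 with a mitochondrial limit of 10%, with at least 2500 genes and with at least 2% Malat1, to 1 with a pseudocount of 1 CPM, and to 0 with at most 2500 genes and with thinning, where the Tap2 ratio was -0.33. For day 11, median-of-ratios scaling, which removes the shift of all genes, gave a median of -0.34 and 1 call in place of 7, with B2m at -0.94, H2-K1 at -0.064, H2-D1 at -0.70, Tap1 at -0.59, Tap2 at -0.46, Tapbp at -0.13 and Psmb8 at -0.22. For tissue the same scaling gave a median of 1.75 and put H2-T23 at 0.87. Over all deposited tissue barcodes, most of which had under 200 genes, the median was -0.41 with 2 calls, and B2m was at -0.41, H2-K1 at -0.39, H2-D1 at -0.52, Tap2 at -0.062 and Tapbp at -0.60. Without barcodes holding an immune UMI it was 0.23 with 3 calls. The cause of these changes was not tested, and the share of all genes called was not computed under the alternatives. Of 599 values of single genes under the alternatives, 523 stayed within the counting interval of the reported value, 62 moved out of it and 14 with an interval off 0 changed sign. With those whose interval included 0, 34 changed sign. No paired analysis was possible because each group holds 1 library, and no replicate could be left out. Depth limits Psmb9, Tap2 and Nlrc5 most.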
